A study of Rattus norvegicus with 12 samples.

Results

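Fatty acid binding proteins (FABPs) are small soluble proteins that carry fatty acids and related lipids through the cytoplasm. The 4 genes described here, Fabp7, Fabp5, Fabp3 and Fabp4, belong to the FABP family and were taken by gene name from the 37209 genes in the count table of the central amygdala (CeA). They were selected on the difference between rats given ethanol vapor and rats given air, so that difference is described below with its size and error and carries no test. The tissue came from 12 male wild type Sprague Dawley rats of 14 to 16 weeks. In the chronic intermittent ethanol (CIE) group, 6 rats had breathed ethanol vapor in daily cycles for several weeks and were killed at the end of the last exposure. The Control group held 6 rats kept in air throughout, and each rat gave 1 poly-A RNA-Seq library from CeA tissue taken with a tissue puncher. CIE rats carry the numbers 1 to 6 and Control rats 7 to 12, so treatment cannot be told apart from anything else that followed this numbering.

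In the brain each of these proteins is known for a cell type and a cargo. Fabp7, also called brain lipid binding protein, is made by radial glia during development and by astrocytes in the adult, and it binds long polyunsaturated fatty acids such as docosahexaenoic acid. Fabp5 is made in glia and neurons and delivers retinoic acid and fatty acids to the nuclear receptor PPARδ, and both Fabp5 and Fabp7 carry the endocannabinoid anandamide to the enzyme that breaks it down. Fabp3 is the heart type carrier, found in neurons of the adult brain, and Fabp4 is the carrier of adipocytes, macrophages and some capillary endothelium.

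Total counts lay between 39082548 and 95647601 per library. Of the genes listed, 7757 had no count in any rat and 20944 were tested between the groups with edgeR. Neuronal, astrocytic and oligodendrocyte markers were present in all libraries, including the GABA synthesis gene Gad1 at 534.7 to 679.6 CPM (reads per 1e6 counted reads). Slc17a7, the glutamate transporter of cortical and basolateral amygdala neurons, ran from 5.21 to 348 CPM in CIE rats and from 3.66 to 130 in Control rats, with means of 130 ± 139 and 32.3 ± 50.3 CPM (SD, n = 6). Libraries thus differed widely in transcripts of such neurons, and the mean was higher in the CIE group. The part of this in the differences below was not tested. Control rat 10 stood apart from the other Control rats in 6.42% of the genes tested and CIE rat 3 from the other CIE rats in 2.75%, against 0.291% to 2.03% for the remaining rats. CIE rat 3 matters below, because it was the highest CIE rat for all 4 FABPs. Because the samples were bulk tissue, fewer cells of a type and less RNA per cell cannot be told apart.

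Fabp7 was the FABP that separated the groups. In the CIE rats 1 to 6 it was at 17.0, 14.6, 20.8, 16.6, 16.8 and 16.3 CPM. In the Control rats 7 to 12 it was at 32.8, 36.9, 38.1, 35.5, 34.0 and 35.3 CPM. The groups did not overlap, and the gap between the highest CIE value and the lowest Control value was wider than the range inside either group. The means were 17.0 ± 2.04 CPM in CIE rats and 35.4 ± 1.91 in Control rats (SD, n = 6), a ratio of 0.481. The log2 fold change was -1.06 with a standard error (SE) of 0.08 and an approximate 95% confidence interval of -1.21 to -0.90. These values rested on 879 to 3549 reads per library, a depth at which counting error alone gives a coefficient of variation of 2.96% in CIE rats and 2.09% in Control rats, below the 12% and 5.40% measured between rats. Leaving out any single rat kept the log2 fold change between -1.12 and -1.02.

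Fabp5 was lower in most CIE rats, with overlap. It was at 20.7, 20.7, 32.7, 21.9, 23.0 and 24.0 CPM in CIE rats 1 to 6. The Control rats 7 to 12 were at 24.6, 35.0, 30.4, 30.3, 28.6 and 27.6 CPM. Thus 5 of 6 CIE rats were below all Control rats, and CIE rat 3 was within the upper part of the Control range. The means were 23.8 ± 4.54 and 29.4 ± 3.46 CPM (SD, n = 6), with a log2 fold change of -0.31 (SE 0.12, 95% interval -0.53 to -0.08). Without CIE rat 3 it was -0.42, and without Control rat 8, the highest Control rat, it was -0.24. The table also lists 2 pseudogenes that are close copies of Fabp5, LOC503340 and LOC691268, which together held 2.22% to 5.42% of the reads counted on the 3 rows. Reads may have been divided among these rows in counting. Adding the pseudogene counts to Fabp5 gave a log2 fold change of -0.30.

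Fabp3 showed no separation. CIE rats 1 to 6 were at 19.2, 20.3, 22.2, 19.1, 15.6 and 14.1 CPM, and Control rats 7 to 12 at 19.3, 19.8, 19.3, 23.8, 17.9 and 17.9. The ranges overlapped, with CIE rats 5 and 6 below every Control rat and Control rat 10 above every CIE rat. The means were 18.4 ± 3.03 and 19.7 ± 2.17 CPM (SD, n = 6) and the log2 fold change was -0.09 (SE 0.11), with an interval of -0.31 to 0.12 that spans 0.

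Fabp4 was covered by few reads. Its counts were 27, 14, 76, 17, 22 and 24 in CIE rats 1 to 6 and 22, 33, 29, 26, 19 and 19 in Control rats 7 to 12. The 76 reads of CIE rat 3 (1.17 CPM) exceeded all other rats, whose levels lay between 0.233 and 0.491 CPM. Means were 0.448 ± 0.362 and 0.373 ± 0.0913 CPM (SD, n = 6). The log2 fold change was 0.27 (SE 0.40) over all rats and -0.28 without CIE rat 3, so its sign rested on that rat. Counting error alone gives a coefficient of variation of 20.6% and 20.5% per rat, and the values measured between rats were 80.7% and 24.5%. With the SE of 0.40, a difference of the size of that of Fabp5 could not be seen. Adipocyte transcripts were hardly present: of the 6 adipocyte markers listed, 2 could be tested and the summed level of the list was 0.634 to 1.74 CPM in CIE rats and 1.52 to 2.20 in Control rats.

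**Figure D1:**
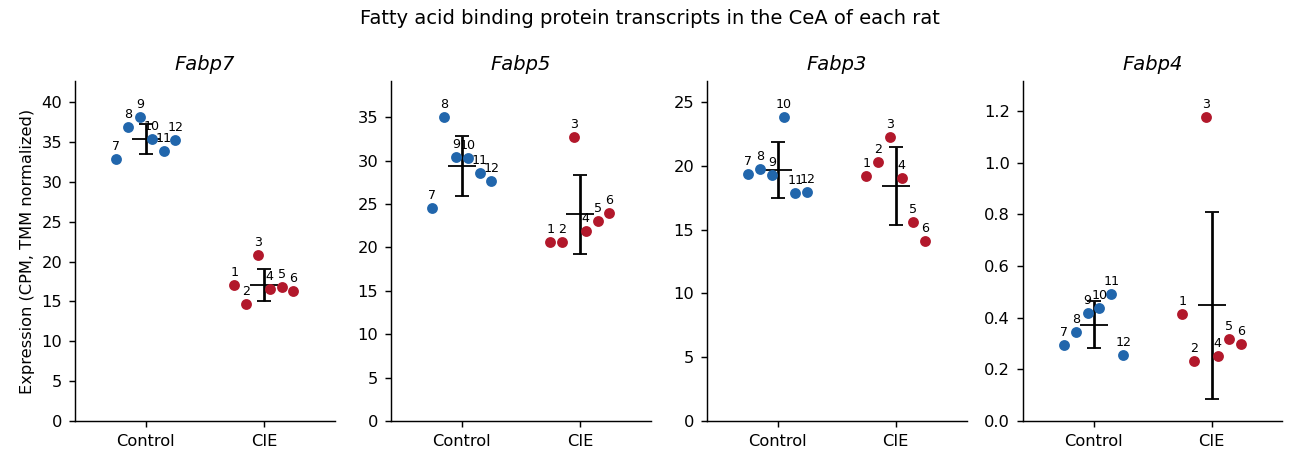
Levels of the 4 FABP transcripts in CPM (linear axes from 0) for each rat, with the rat number above its point, and the mean ± SD of each group of 6 as a black bar. The Fabp7 values of the CIE rats, 14.6 to 20.8, all lie below those of the Control rats, 32.8 to 38.1, whereas the groups overlap for Fabp5, Fabp3 and Fabp4.

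All 4 genes passed the filter on low counts. Over all genes tested, edgeR's quasi-likelihood test called 76 at 5% false discovery rate (FDR, 0.363%), 54 of them lower in CIE rats (0.258%). At nominal p below 0.05 it called 1740 genes (8.31%), 903 lower (4.31%) and 837 higher. With library sizes alone in place of TMM factors, 60.3% of the nominal calls were higher in CIE rats, compared with 48.1%. Of the 4 FABPs, Fabp7 was called lower at 5% FDR, and Fabp7 and Fabp5 at nominal p. For 187 genes (0.893%) the values of the CIE and Control rats did not overlap, and Fabp7 was the FABP among these. As this contrast chose the genes, nothing is read from these counts. The median log2 fold change of the 4 genes was -0.20, beside 0.00 over all genes tested.

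The promoter of Fabp7 is shown because nuclear factor I (NFI) proteins, Notch signalling and the clock repressors of the REV-ERB family are known to act on this gene, and that of Fabp3 because it is the other of the 4 genes with an entry in the RefSeq promoter table, so 2 of 4 matched. Each is the 250 bases before the gene's start, from RefSeq on build GRCr8, which is newer than the build used for counting. Capitals mark matches to TTGGC, the core bound by NFI proteins, or to AGGTCA, the core bound by PPARs and REV-ERBs, on either strand.
Fabp7 chr20:37669356-37669605 (+ strand): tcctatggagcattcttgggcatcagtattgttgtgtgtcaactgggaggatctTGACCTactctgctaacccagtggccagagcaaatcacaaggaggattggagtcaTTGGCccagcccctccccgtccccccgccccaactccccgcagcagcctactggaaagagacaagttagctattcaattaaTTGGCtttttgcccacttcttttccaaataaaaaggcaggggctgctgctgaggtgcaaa
Fabp3 chr5:147935875-147936124 (+ strand): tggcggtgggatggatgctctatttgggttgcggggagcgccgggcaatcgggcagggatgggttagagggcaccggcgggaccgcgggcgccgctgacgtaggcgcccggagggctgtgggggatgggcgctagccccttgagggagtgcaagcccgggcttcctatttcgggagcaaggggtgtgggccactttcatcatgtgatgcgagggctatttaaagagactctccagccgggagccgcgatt

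The Fabp7 sequence held TTGGC at 141 to 137 and again at 60 to 56 bases before the start, and AGGTCA on the reverse strand at 196 to 191 bases before it. Of 33469 rat promoters of the same length, 40.3% held TTGGC, 11% held it 2 or more times and 14.1% held AGGTCA, so none of these is rare. The Fabp3 sequence held neither. The E-box CACGTG (5.59% of promoters), the RBPJ site GTGGGAA (5.27%), the POU octamer ATGCAAAT (1.56%) and the TATA box TATAAA (12.9%) were in neither window on either strand. The motifs do not overlap one another in these windows. A match is a description of the letters and not a bound site.

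The genes on either side of Fabp7 in the GRCr8 gene order differed little between the groups. On one side, log2 fold changes were 0.09 for Pkib, -0.01 for Serinc1 and 0.06 for Hsf2. On the other they were 0.02 for Smpdl3a, -0.05 for Tspyl1 and -0.14 for Tspyl4, and none of the 6 had a nominal p below 0.05 in edgeR. Fabp4 and Fabp5 lie in 1 cluster with Pmp2, Fabp9 and Fabp12. Beyond that cluster, Pag1 next to Fabp5 was at 0.09 and Impa1 next to Fabp12 at -0.03. Near Fabp3, Serinc2 was at 3.03 ± 2.98 CPM in CIE rats and 1.38 ± 0.818 in Control rats (1.13, SE 0.60, not past nominal p), and Tinagl1, a secreted basement membrane protein, was higher in CIE rats at nominal p, at 9.95 ± 2.33 against 6.67 ± 0.619 CPM (SD, n = 6, log2 fold change 0.58, SE 0.14, edgeR FDR 0.148), whereas Zcchc17 was at -0.04.

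The FABPs belong to the intracellular lipid binding proteins, which include the carriers of retinol and retinoic acid. Of 11 other members listed, 5 could be tested and none had a nominal p below 0.05 in edgeR or passed 5% FDR. In the fit by DESeq2 none passed a nominal p either. The retinoic acid carrier Crabp1 was at 14.2 ± 4.70 CPM in CIE rats and 17.3 ± 8.56 in Control rats (log2 fold change -0.28, SE 0.30). Crabp2 was at 0.513 ± 0.298 and 0.803 ± 0.255 (-0.64, SE 0.40). Pmp2, the FABP of peripheral myelin, was at 0.172 ± 0.0974 and 0.116 ± 0.0637 (0.51, SE 0.51), and Fabp12 at 0.375 ± 0.0601 and 0.420 ± 0.160 (-0.16, SE 0.29). The 95% intervals of Crabp1, Crabp2, Pmp2 and Fabp12 are all wide enough to hold the log2 fold change of Fabp5. That of Crabp2, -1.42 to 0.15, also holds the log2 fold change of Fabp7. Fabp1, Fabp6 and Fabp9, the FABPs of liver, ileum and testis, had at most 6 reads in any rat, Fabp2 of the intestine had none, and the retinol carriers Rbp2 and Rbp7 had at most 18 and 5.

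**Figure D2:**
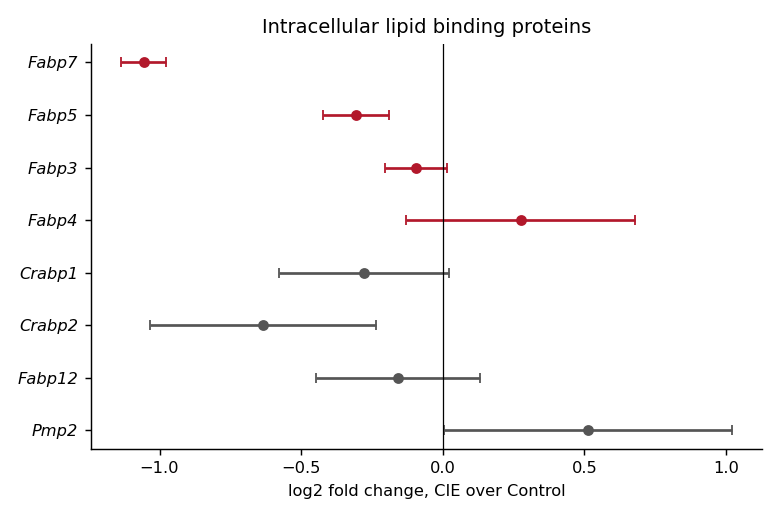
Log2 fold changes of CIE over Control with their SE as bars (edgeR, 6 rats a group) for Fabp7, Fabp5, Fabp3 and Fabp4 in red and 4 of the other tested lipid binding proteins in grey. Fabp7 sits at -1.06 with a short bar, and Fabp4, Crabp2 and Pmp2 have the widest bars, with SEs of 0.40, 0.40 and 0.51.

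Because Fabp7 is an astrocyte transcript in the adult brain, its level was set beside those of other astrocyte genes in the same libraries. The 20 astrocyte markers divided evenly, with 10 negative and 10 positive log2 fold changes and a median of -0.02. The 3 with the highest CPM overlapped between the groups. Ndrg2 was at 959 ± 122 CPM in CIE rats and 945 ± 98.2 in Control rats, glutamine synthetase (Glul) at 947 ± 87.4 and 944 ± 75.0, and the glycolytic enzyme Aldoc at 698 ± 57.7 and 738 ± 65.0 (SD, n = 6). At nominal p in edgeR, 3 markers were lower and 2 higher, beside 8.31% of all genes tested in either direction. None of the markers passed 5% FDR in edgeR or DESeq2. The lower ones were the water channel Aqp4 (-0.28, SE 0.10), the neurotensin receptor Ntsr2 (-0.17, SE 0.07) and the transcription factor Sox9 (-0.16, SE 0.07). The gap junction gene Gjb6 (0.34, SE 0.15) and the calcium binding protein S100b (0.15, SE 0.06) were higher. With library sizes alone in place of TMM factors, 3 markers passed, 1 lower and 2 higher.

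Within each library, the log2 ratio of Fabp7 to the mean of the astrocyte markers was -3.77 ± 0.17 in CIE rats and -2.74 ± 0.10 in Control rats (SD, n = 6). No CIE rat reached the Control range, and the difference of -1.03 was nearly that of Fabp7 itself. Set against single astrocyte genes, Fabp7 differed between the groups by -0.95 to the folate enzyme Aldh1l1, by -1.08 to the glutamate transporter Slc1a3 and by -0.77 to Aqp4, again without overlap. The ratio of Fabp7 to Fabp5 was -0.47 ± 0.13 in CIE rats and 0.27 ± 0.12 in Control rats. This difference of -0.75 came without overlap too, so Fabp7 was lower in CIE rats also relative to Fabp5. The FABPs were chosen on the difference between the groups, so these ratios describe it again and are no further support for it. The log2 ratios of Fabp5, Fabp3 and Fabp4 to the astrocyte mean differed by -0.29, -0.07 and 0.07, and all of them overlapped. With the astrocyte score as a covariate in edgeR the log2 fold change of Fabp7 was -1.04.

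**Figure D3:**
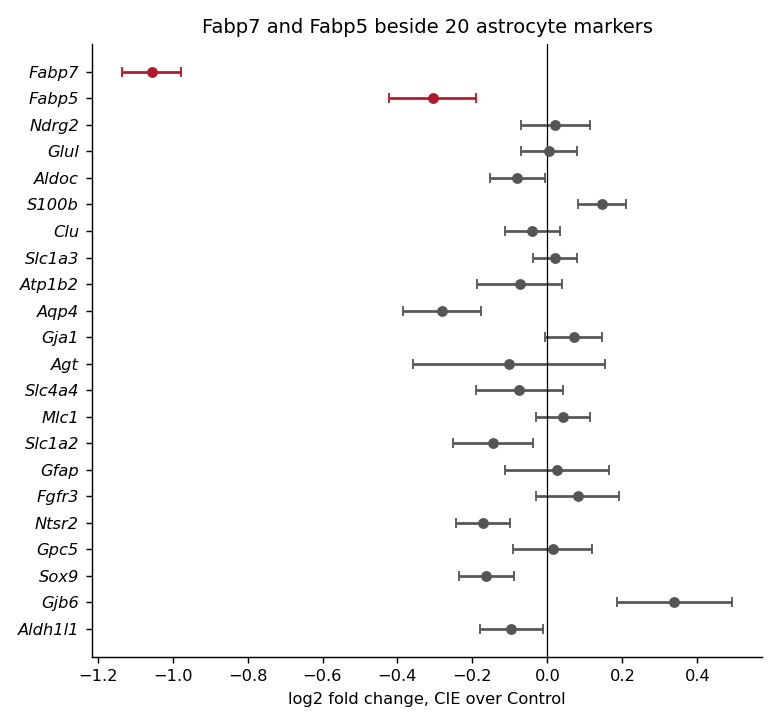
Log2 fold changes of CIE over Control with their SE as bars (edgeR, 6 rats a group) for Fabp7 and Fabp5 in red and 20 astrocyte markers in grey, with the markers in descending order of CPM. The markers lie between -0.28 for Aqp4 and 0.34 for Gjb6, and Fabp7 lies outside them at -1.06.

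Radial glia, the other cells known for Fabp7, were represented by 11 markers of precursors. Of these, 3 were lower in CIE rats at nominal p (4.31% over all genes tested) and none higher. None passed 5% FDR in edgeR over all rats, 2 did without CIE rat 6, and the same 3 did in DESeq2 (FDR 0.0135 to 0.0333). The stem cell factor Sox2, which adult astrocytes also make, was at 146 ± 10.2 CPM in CIE rats and 171 ± 3.49 in Control rats (-0.23, SE 0.06, FDR 0.148), and the groups did not overlap. The intermediate filament Nes was at 3.61 ± 1.23 and 5.95 ± 0.642 CPM (-0.72, SE 0.18, FDR 0.153). Top2a, a gene of dividing cells, was at 0.898 ± 0.344 and 1.66 ± 0.363 (-0.89, SE 0.25, FDR 0.211). Vim and Dcx were at 0.11 (SE 0.15) and 0.10 (SE 0.15) on the log2 scale, and the median of the list was 0.01.

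Markers of other cell types were set beside Fabp7 as well. Of 15 genes of myelinating oligodendrocytes, 14 were lower in CIE rats at nominal p (4.31% over all genes tested), with a median log2 fold change of -0.58. None passed 5% FDR in edgeR over all rats, 7 did without CIE rat 6, and 4 did in DESeq2, among them Ugt8 of myelin lipid synthesis (-0.95, DESeq2 FDR 0.000526). Their summed level was 5975 to 14454 CPM in CIE rats and 9199 to 17145 in Control rats, and none was at 0. Mbp was at 3576 ± 1182 and 5188 ± 1127 CPM and Mobp at 1061 ± 356 and 1438 ± 276 (SD, n = 6). With the oligodendrocyte score as a covariate, Fabp7 was at -1.14 (SE 0.11), Fabp5 at -0.36 (SE 0.16), Fabp3 at -0.25 (SE 0.15) and Fabp4 at -0.36 (SE 0.57). The score itself differed by -0.62 between CIE and Control rats, so this fit cannot tell its part apart from that of treatment. Of 9 tested markers of oligodendrocyte precursors, Matn4 (-0.56, DESeq2 FDR 0.0461) and Olig1 (-0.36) were lower at nominal p, and in edgeR neither passed 5% FDR over all rats, whereas Olig1 did without CIE rat 6.

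Of 10 markers of meningeal fibroblasts, 7 were lower at nominal p and 3 at 5% FDR, beside 4.31% and 0.258% of all genes tested. Col1a1 fell from 25.1 ± 6.01 to 12.2 ± 3.52 CPM (-1.04, SE 0.19, FDR 0.0270), Col3a1 from 18.8 ± 4.65 to 8.90 ± 2.46 (-1.08, SE 0.19, FDR 0.0243) and the growth factor Igf2 from 48.8 ± 11 to 24.1 ± 6.17 (-1.02, SE 0.17, FDR 0.0207). These 3 log2 fold changes were of about the same size as that of Fabp7. The summed level of the meningeal list was 102 to 151 CPM in CIE rats and 159 to 227 in Control rats, without overlap. Among 15 endothelial markers 6 were lower and 2 higher at nominal p. The glucose transporter Slc2a1 of the blood-brain barrier was higher (0.19, SE 0.07), the receptor Flt1 lower (-0.25, SE 0.09), and the tight junction gene Cldn5 was at -0.04 (SE 0.08). Kdr, a receptor of vascular endothelial growth factor, fell from 19.96 ± 3.42 to 10.6 ± 1.82 CPM (-0.92, SE 0.14, FDR 0.0116). Among 8 tested mural markers 5 were lower, and the potassium channel Kcnj8 of pericytes fell from 4.53 ± 0.908 to 2.33 ± 0.555 CPM (-0.96, SE 0.18, FDR 0.0300). Of 15 neuronal markers 1 was lower at nominal p (Tubb3, -0.20), while Slc17a7 had the highest log2 fold change of the list, 2.01, without passing nominal p in edgeR. Of 14 microglial and macrophage markers Cx3cr1 was lower (-0.28) and Cd163 higher (0.77), at nominal p only. The call of Kdr held in all 12 fits that left out a rat, that of Igf2 in 8 and those of Col1a1, Col3a1 and Kcnj8 in 5 each, and none of the 5 held with the oligodendrocyte score as a covariate (FDR 0.149 to 0.252). The part of the meningeal and vascular difference in that of Fabp7 was not tested.

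Fatty acids reach FABPs through membrane carriers and are activated by acyl-CoA synthetases. Of 23 tested genes of uptake and activation, 3 were higher and 3 lower in CIE rats at nominal p, beside 8.31% of all genes tested. None passed 5% FDR in edgeR over all rats, and the median log2 fold change was near 0. Mfsd2a, the carrier that brings docosahexaenoic acid across the blood-brain barrier, was at 16.5 ± 1.47 CPM in CIE rats and 12.5 ± 1.42 in Control rats (0.40, SE 0.09, edgeR FDR 0.0863, DESeq2 FDR 0.00320). In edgeR it passed 5% FDR without Control rat 8 or with the oligodendrocyte score, and Dbi passed without CIE rat 3. The acyl-CoA binding gene Acbd4 (0.17, SE 0.07) and the synthetase Acsl5 (0.16, SE 0.07) were the other higher genes. Lower were the fatty acid translocase Cd36, at 0.186 ± 0.146 and 0.510 ± 0.200 CPM (-1.45, SE 0.56), the acyl-CoA binding protein Dbi (-0.29, SE 0.12) and the transporter Slc27a4 (-0.16, SE 0.07). Cd36 was covered by only 1 to 58 reads per library.

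Among 15 tested genes of lipolysis and lipid droplets, 3 were higher at nominal p and none lower, beside 8.31% of all genes tested in either direction. None passed 5% FDR in edgeR, and 1, Plin4, did in DESeq2 (FDR 0.00834). This droplet coat protein was at 3.59 ± 1.14 CPM in CIE rats and 1.63 ± 0.634 in Control rats (1.15, SE 0.29, edgeR FDR 0.167). Pnpla2, the first lipase of triglyceride breakdown, was at 13.5 ± 1.99 and 11 ± 0.868 CPM without overlap (0.30, SE 0.10, FDR 0.362), and the lipoprotein lipase Lpl at 40.1 ± 10.3 and 31.3 ± 5.09 (0.36, SE 0.16). Of 13 nuclear receptors and coactivators, the fatty acid receptor Ppara was the 1 past nominal p, at 12.5 ± 1.95 and 9.27 ± 0.478 CPM (0.43, SE 0.10, edgeR FDR 0.118, DESeq2 FDR 0.00787). Rara (-0.18, SE 0.10) and Ppargc1b (0.17, SE 0.11) were next by p.

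Of 14 tested genes that PPARs are known to induce, 1 was past nominal p, beside 8.31% of all genes tested. This was Pdk4, a kinase that turns cells from glucose to fatty acid use. It was at 5.06 ± 2.62 CPM in CIE rats and 1.69 ± 0.540 in Control rats (1.57, SE 0.32, edgeR FDR 0.0597, DESeq2 FDR 9.96e-05, and past 5% FDR in edgeR without CIE rat 3 or with either marker score). Txnip (0.35, SE 0.17) and Ucp2 (-0.20, SE 0.13) followed by p, and the median was -0.04. This list also holds Fabp3 and Fabp4. Among 35 genes of fatty acid oxidation, Acat1 of ketone body use was higher at nominal p, at 89.4 ± 8.55 against 74.6 ± 10.3 CPM (0.26, SE 0.09, FDR 0.403), and the list's median was near 0. Acaa2 (-0.22, SE 0.15) and Eci2 (-0.16, SE 0.12) had the next smallest p.

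Of 13 tested genes for fatty acid desaturation, elongation and release, 3 were lower at nominal p and none higher, beside 8.31% of all genes tested in either direction. None passed 5% FDR in edgeR over all rats, whereas Elovl6 and Elovl1 did in DESeq2 (FDR 0.00278 and 0.00740), as did 2 genes in edgeR without CIE rat 6 and 1 without Control rat 10. Elongation of saturated chains by Elovl6 was represented by 15.1 ± 1.24 CPM in CIE rats and 20.3 ± 2.39 in Control rats (-0.43, SE 0.09, edgeR FDR 0.0597). Elovl1, the elongase of very long saturated chains found in myelin lipids, was at 32.8 ± 7.42 and 50.3 ± 7.91 CPM (-0.62, SE 0.14, FDR 0.113). The acyltransferase Lpcat3 was at 58.0 ± 1.43 and 62.9 ± 4.22 (-0.12, SE 0.05). For anandamide, 14 genes were tested, 1 of which was lower and 1 higher, with none at 5% FDR in edgeR or DESeq2. The lipase Abhd4 of its synthesis was lower (-0.23, SE 0.09) and Abhd6, which hydrolyses the related lipid 2-arachidonoylglycerol, was higher (0.21, SE 0.10) at nominal p, while the phosphodiesterase Gde1 did not pass (-0.18, SE 0.09).

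Of 23 genes tested that are known to act on Fabp7 or belong to the same regulators, 2 were higher and 1 lower at nominal p. Over all genes tested this share was 8.31%. None passed 5% FDR in edgeR over all rats with TMM, and 1 did with library sizes alone, without CIE rat 6, without Control rat 10 or in DESeq2. Nr1d2, which encodes the repressor REV-ERBβ, was at 131 ± 11.1 CPM in CIE rats and 106 ± 6.30 in Control rats (0.31, SE 0.07, edgeR FDR 0.0765, DESeq2 FDR 0.00131), without overlap. The clock output gene Dbp was at 216 ± 51.4 and 148 ± 44.0 CPM (0.54, SE 0.18, FDR 0.362). Rbpj, the DNA binding partner of Notch, was at 35.6 ± 3.38 and 41.3 ± 1.95 (-0.22, SE 0.07, FDR 0.296). The median of the list was 0.02.

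**Figure D4:**
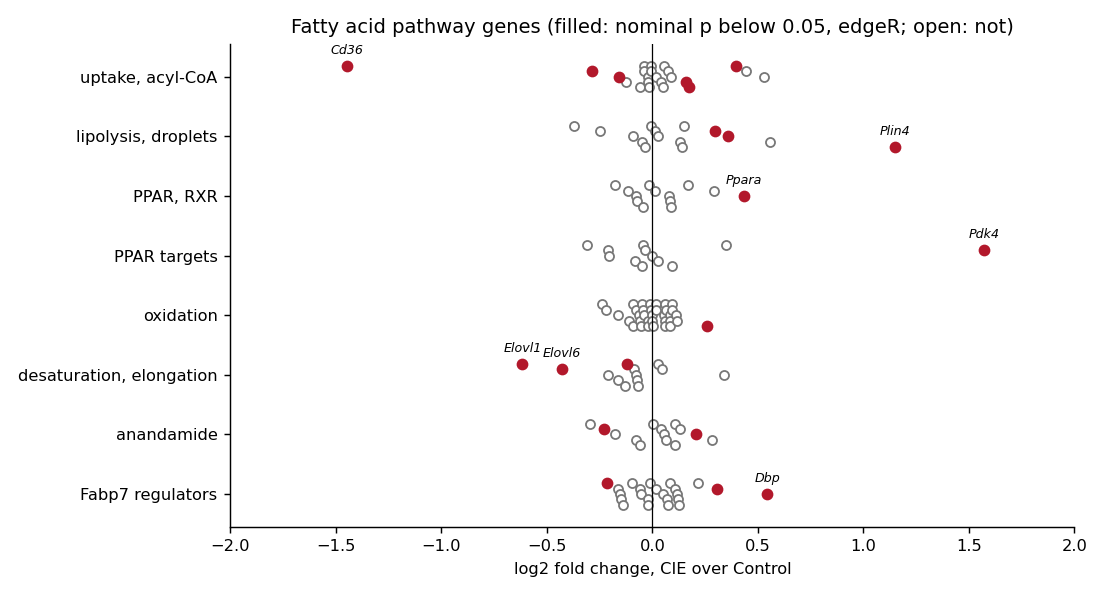
Log2 fold changes of CIE over Control for every tested gene of 8 lists around fatty acid carriage, without the 4 FABPs, with filled red points for nominal p below 0.05 (edgeR) and open points for the rest. The points gather near 0 in all 8 lists, and the named ones past 0.4 in either direction include Pdk4 at 1.57, Plin4 at 1.15 and Cd36 at -1.45. Cd36 had 1 to 58 reads per library.

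How the FABPs vary from rat to rat inside the groups was not used to choose them. With the group means removed, Pearson's r over the 12 rats was tested for the 6 pairs by permuting rats within groups. Fabp7 and Fabp5 varied together, with r = 0.85 (permutation p = 0.00419, Benjamini-Hochberg adjusted p = 0.0251 by the permutation test) and Spearman's rho of 0.75 (permutation p = 0.0104, adjusted 0.0625). Among CIE rats it was 0.89 (exact permutation p = 0.0569), and among Control rats 0.78 (exact permutation p = 0.0681). Without CIE rats 2 and 3, the rats farthest out for Fabp7, r was 0.62 (permutation p = 0.125). The strength of the relation thus depends in part on those rats. The Control rats include neither of them, but their r did not pass 0.05 in the exact permutation test. Genes outside the family had larger r with Fabp7 (Veph1, 0.94) and with Fabp5 (Rala, 0.94), so the relation is not particular to the FABPs. For Fabp7 and Fabp4 r was 0.82 (permutation p = 0.0172, adjusted 0.0515) and rho 0.59 (permutation p = 0.0594), and without the same 2 rats r was 0.26. For Fabp5 and Fabp4 r was 0.75 (permutation p = 0.0450, adjusted 0.0900) and rho 0.61 (permutation p = 0.0538), and without CIE rat 3 and Control rat 8 r was 0.40. Pairs with Fabp3 had r between 0.27 and 0.45 and adjusted permutation p of 0.375 to 0.486.

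**Figure D5:**
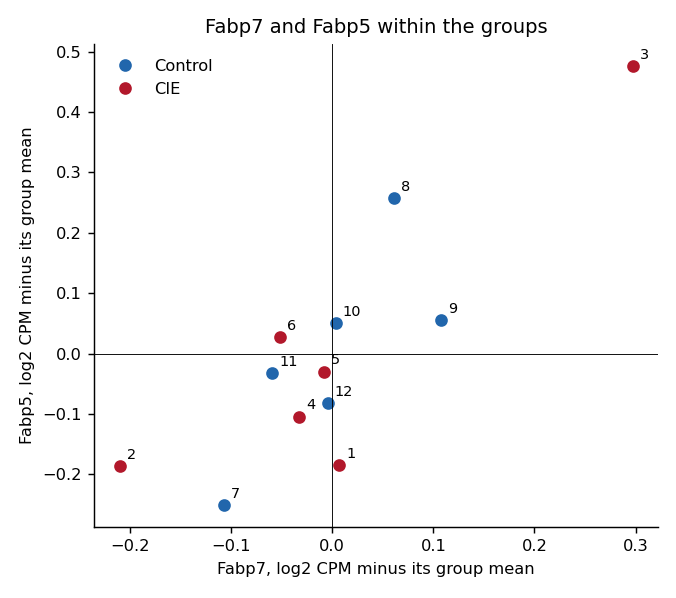
Each point is a rat, with its number, placed by its log2 CPM of Fabp7 (x axis) and Fabp5 (y axis) minus the mean of its group. CIE rat 3 lies far at the upper right, and without it r falls from 0.85 to 0.60.

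The same test was run for each FABP against 6 cell type scores (astrocytes, oligodendrocyte precursors, oligodendrocytes, neurons, endothelial cells, and microglia with macrophages), 24 pairs in all, and none passed after adjustment. The smallest p was that of Fabp3 with the precursor score (r = -0.74, rho = -0.75, permutation p = 0.0183, adjusted 0.440, and r = -0.64 without CIE rats 4 and 6). Fabp7 had r = 0.37 with the astrocyte score (rho = 0.23, permutation p = 0.356) and -0.33 with the oligodendrocyte score (rho = 0.08, permutation p = 0.374). For Fabp5 and the astrocyte score r was 0.52 (rho = 0.47, permutation p = 0.128). Values of r with the astrocyte score depended strongly on 2 libraries. When Control rat 10 and CIE rat 6 were both dropped, r rose to 0.75 for Fabp7 (permutation p = 0.0371, not adjusted). For Fabp5 it rose to 0.83 (permutation p = 0.0137, not adjusted). The same step moved r from 0.26 to 0.71 for Fabp4 and from -0.58 to 0.07 for Fabp3. Dropping the 2 farthest rats of other scores also gave permutation p below 0.05, not adjusted, in some pairs. These were Fabp7 with microglia and macrophages (r = 0.44, permutation p = 0.0224) and Fabp5 with neurons (r = -0.68, permutation p = 0.0439). Fabp4 with endothelial cells was another (r = -0.70, permutation p = 0.0469). Such values were thus not limited to the astrocyte score. Without CIE rat 3, 1 pair passed, Fabp3 with the astrocyte score (r = -0.89, permutation p = 0.00102, adjusted 0.0245), which had r = -0.58 over all rats.

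Among 16890 genes with a mean of at least 1 CPM, those most like Fabp7 over the 12 rats with group means removed were Veph1 (r = 0.94), LOC102547700 (0.92), LOC103693817 (0.91), LOC679851 (0.90) and Poldip2 (0.89). The most opposed were Nacc1 (-0.93), Gtf3c1 (-0.93), Ankhd1 (-0.92), Zc3h13 (-0.92) and Vps13b (-0.90). All of these points share the 12 libraries, and without CIE rat 3 the same 10 values of r shrank to between 0.73 and 0.85 and between -0.80 and -0.71. Between CIE and Control the log2 fold changes of these 10 genes lay between -0.13 and 0.31, and none had a nominal p below 0.05 in edgeR. Over all genes compared the median r was -0.04, with 7890 of 16890 positive. Over the 20 astrocyte markers the median was 0.29, with 15 positive and a highest value of 0.73. Other lists were positive too, with a median of 0.22 over 13 microglial and macrophage markers (highest 0.82) and 0.37 over 3 of choroid plexus. Medians were -0.32 over 15 oligodendrocyte, -0.31 over 15 endothelial and -0.12 over 15 neuronal markers.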

How the data were processed

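Paired-end poly-A RNA-Seq was run on the central amygdala, with 1 library per rat and 6 rats each in the CIE and Control groups. The authors mapped reads to Rnor_6.0 with BWA and deposited raw read counts per gene made with HTSeq. The submitters' processing notes also name DESeq2 1.26. The gene annotation and the strand and overlap settings are not given in the sources used here. Total counts were 39082548 to 95647601 per library, and no 2 libraries of a group agreed within sampling noise (variance at least 17.5 times that of counting). Groups come from the treatment labels, and rat numbers pair no rats across groups.

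The 4 FABPs and all gene lists were chosen with earlier results of these data known. Counts were tested with edgeR 4.0.16 in R 4.3.3 (quasi-likelihood F test, two-sided, TMM, filterByExpr, no covariates), with Benjamini-Hochberg adjustment over 20944 genes. Levels are TMM-normalized CPM, SE is that of the log2 fold change, and log2 CPM uses a prior count of 0.5. Correlations used 100000 permutations within groups, or exact enumeration over 6 rats. The scripts were checked on simulated data. Named genes were the 4 FABPs, other lipid binding proteins, the genes at 5% FDR and the 3 with the smallest p of each pathway list, the genes at 5% FDR of each marker list with the 3 most abundant of 4 lists, and the 5 genes most and least like Fabp7. Genes that the rule names and the text does not are not reported here. Further genes named where a count was 5 or fewer, or as neighbours, were chosen after their values were seen, as were Slc17a7 and the remaining genes past nominal p. Bmal1 was found as Arntl and Slco1a4 as the synonym Slco1a2, and Ly6c1 was not analysed here. Alternatives, fitted in R, were DESeq2 1.42.0 and, in edgeR, other size factors and filters, astrocyte and oligodendrocyte scores as covariates, and leaving out each rat. Correlations and summaries were made in Python 3.11.15. The sum of Fabp5 with its pseudogenes and the likeness to Fabp7 without CIE rat 3 were added after the values were seen. Promoter sequences are from RefSeq (GRCr8), whose gene order alone was used for neighbours.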

Additional observations from a re-analysis of the deposited data

Results flagged for a closer look

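Of 66 genes, those with at least 10 reads in some rat gave 122 groups of 6 rats. Of these groups, 19 held a rat whose gap to the nearest other rat exceeded Dixon's 95% limit for 6 values. Chance flags about 1 in 20 groups in theory, but more were flagged over all genes tested. There the same limit flagged CIE rats 1 to 6 in 0.616%, 1.30%, 2.75%, 0.372%, 0.649% and 2.03% of genes, and Control rat 10 alone in 6.42%. The 19 groups are therefore not read as unusual. CIE rat 3 was the rat in 7 of the 19, but 5 of these 7 genes were named for their likeness to Fabp7 over the same rats, so this number is not independent of how the genes were chosen. It was high for Fabp5 (32.7 CPM, with the other CIE rats at 20.7 to 24.0), for Fabp4 (1.17, others 0.233 to 0.415), for Veph1 (10.3, others 5.96 to 7.57), for LOC102547700 (4.07, others 1.88 to 2.70) and for LOC103693817 (11.4, others 8.73 to 9.63). It was low for Zc3h13 (53.4, others 64.5 to 69.0) and Vps13b (81.8, others 103 to 116). For Fabp7 CIE rat 3 was the highest CIE rat at 20.8 CPM without meeting this limit.

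Control rat 10 was high for Fabp3 (23.8 CPM, others 17.9 to 19.8), Acat1 (94.1, others 67.7 to 77.5) and Dbp (235, others 117 to 148). CIE rat 6 was high for Mfsd2a (19.3, others 14.9 to 16.6), Txnip (62.4, others 28.9 to 39.7) and Rbpj (42.2, others 33.1 to 35.5). Single values stood out for Ppara and Gtf3c1 in Control rat 7 (10.2 and 202 CPM), Rara in CIE rat 5 (11.2), Gde1 in CIE rat 2 (111), Vim in Control rat 12 (54.8) and Col1a1 in Control rat 9 (37.1).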

How the results depend on the processing

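Fabp7 stayed between -1.12 and -1.02 (log2 fold change) when each rat was left out and between -1.14 and -1.04 under the other alternatives. Over the fits that left out a rat, Fabp5 ran from -0.42 to -0.24, Fabp3 from -0.16 to -0.03 and Fabp4 from -0.28 to 0.40. Fabp4 reversed to -0.28 without CIE rat 3 and to -0.36 with the oligodendrocyte score, and the cause was not tested. Genes at 5% FDR numbered 76, against 294 by DESeq2 (172 lower, 122 higher), 36 with the oligodendrocyte score as a covariate (7 lower, 29 higher), 1740 at nominal p, and 34 to 154 when 1 rat was omitted (lowest without Control rat 9, highest without CIE rat 6). With the oligodendrocyte score, nominal calls became 3 in uptake and activation, 3 among PPAR and RXR genes, 2 among PPAR targets, 1 for anandamide, 3 in astrocytes, 1 in radial glia, 1 in oligodendrocyte precursors, 3 in oligodendrocytes, 3 in endothelium, 2 in mural cells, 3 in meninges and 3 in choroid plexus (0 of 4 tested without the score). PPAR targets gave 2 calls without a filter, by DESeq2 and with the astrocyte score. The other lipid binding proteins gave 2 without a filter (Fabp1 and Fabp9, at 6 reads or fewer), astrocytes 3 with library sizes alone, and neurons 0 with library sizes alone or the astrocyte score. Leaving out a rat gave 0 to 1 calls for the other lipid binding proteins (Crabp2, without CIE rat 6), 2 to 6 for uptake, 1 to 3 for PPAR and RXR genes, 1 to 3 for PPAR targets, 1 to 2 for oxidation, 0 to 3 for anandamide, 3 to 6 for Fabp7 regulators, 2 to 4 for astrocytes, 2 to 4 for oligodendrocyte precursors, 0 to 3 for neurons, 4 to 9 for endothelium and 1 to 3 for microglia. The correlated FABP pairs numbered 0 to 2 and the pairs with a cell type score 0 to 1. Fabp7 with Fabp5 no longer passed without CIE rat 2 (r = 0.86), CIE rat 3 (0.60) or Control rat 7 (0.84), and Fabp7 with Fabp4 passed without Control rat 8, 11 or 12 (r = 0.84, 0.89 and 0.85). No paired analysis was possible because the groups share no replicate numbers. Counts limit the precision of Fabp4, Pmp2, Fabp12 and Cd36, each with fewer than 100 reads per library.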

Other observations

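Choroid plexus and ependymal markers were scarce, with a summed level of 5.52 to 13.4 CPM in CIE rats and 4.48 to 25.5 in Control rats, and none of the 4 tested passed nominal p in edgeR (median log2 fold change -0.38). Over the same 12 rats, with group means removed and as a description only, r with Fabp7 had a median of 0.32 over 21 uptake and activation genes. Over 23 regulator genes the median was -0.29 and 3 were positive, beside 7890 of all 16890 genes compared. The genes share the 12 libraries, so they are not independent observations.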
